A study of Mus musculus with 4 samples.

Results

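Kinesin motor genes were taken as the gene symbols made of Kif, a number and at most 1 letter from a to c, and 38 of the 34968 symbols listed in all 4 bulk RNA-seq libraries of this study met that rule. By their known roles, 15 were grouped as motors of axonal and dendritic transport, 12 as mitotic motors, 6 as motors of cilia and hedgehog signaling, and 5 as motors that act at microtubule ends or have other roles. The libraries were made from tdTomato+ neurons, collected by sorting embryoid bodies at day 12, 2 from the line labelled N/D and 2 from the line labelled N/D/S. Both lines descend from 1 mouse ES cell line (Dlx6-Cre; Ai9, strain C57/BL6), in which cells that have expressed Dlx6-Cre are marked by tdTomato. In both, Nkx2-1 and the transactivator tTA were driven by Nestin sequences and Dlx2 by the tTA-responsive TRE promoter, and the N/D/S line carried St18 together with Dlx2 on that promoter. Both were grown with the Wnt inhibitor XAV-939 and the hedgehog agonist SAG. Lines were made by drug selection of clones, and how many clones entered the libraries is not given in the sources used here, so a difference between lines cannot be told apart from one between clones. The comparison asks whether adding St18, which the study examined for long-process, projection-like morphology, goes along with a different set of motors. Whether the 2 libraries of a line came from separate differentiations is not given in the sources used here, so p-values measure only the spread between libraries, which may be technical.

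Values are TPM, a transcript abundance, in which reads are scaled to transcript length and to the library total, so levels of different genes can be compared within a library. St18 itself, which should mark the N/D/S line, had 44.4 and 15.9 TPM in replicates 1 and 2 of N/D/S, against 28.5 and 26.6 TPM for N/D. At the RNA level it did not separate the lines, so every direction given below rests on the labels. A value per symbol does not tell St18 of the transgene from the cells' own. In the paper, antibody staining of embryoid bodies, which measures protein, showed St18 together with its V5 tag in N/D/S. In N/D it showed St18 only sparsely and no V5. In the replicate 1 library labelled N/D, 13504 symbols had a value above 0, against 17220 to 20878 in the others. Of the 11051 genes at 1 TPM or more in all of the other 3, 21.9% were listed at 0 there, against at most 0.329% for the same count in any other library. All 14 neuron markers, among them Tubb3, Dcx, Gad1 and Dlx5, had at least 1 TPM in every library, with a summed level of 3688 to 5810 TPM. Transcripts that mark other cell types were also listed, although the sort for tdTomato should remove cells that never expressed Dlx6-Cre, and their sums were higher in replicate 2 of each line. In N/D replicate 1, 5 of 6 pluripotency and 8 of 9 glial markers were listed at 0. The 6 pluripotency markers summed to 0.247 and 3.60 TPM in replicate 1 (N/D, then N/D/S), against 185.7 and 293.1 TPM in replicate 2. The 9 glial markers summed to 0.0807 and 23.3 TPM in replicate 1, against 217.6 and 74.5 TPM in replicate 2. The 10 neural progenitor markers summed to 488.7 TPM and 1215 TPM in N/D and to 542.1 TPM and 727.3 TPM in N/D/S, in replicate order. The 10 mesenchymal, endothelial and blood markers summed to 12.6 to 76.7 TPM. In a bulk sample, fewer cells of a type and less RNA per cell cannot be told apart, and the part of these cells in the results below was not tested.

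Kinesins are motor proteins that use ATP to step along microtubules, most of them toward the plus end. In neurons, microtubules of the axon point with their plus ends outward, so kinesins carry vesicles, mitochondria and cytoskeletal proteins toward the axon tip, while cytoplasmic dynein brings cargo back. Another branch of the family builds and separates the mitotic spindle and is made mainly by dividing cells, and a smaller branch works in cilia. Many genes used in mitosis are held down in cells that are not dividing. A repressive complex does this by binding a short promoter element, the cell cycle genes homology region (CHR).

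The promoters of the members are shown because the letters of this element set the mitotic group apart from the transport group in sequence. RefSeq promoter windows of GRCm38.p6, from 250 bases before to 50 after a gene's start site, were matched by symbol for 31 of the 38 members; Kif5a, Kif5b, Kif13b, Kif19a, Kif20a, Kif21b and Kif28 had no entry. The letters TTTGAA, which read TTCAAA from the other strand, were present in 9 of 11 mitotic promoters (81.8%), 1 of 11 transport promoters (9.09%) and 2 of 9 others (22.2%), against 20.2% of the 27025 genes with a window. In 7 of the 11 mitotic promoters (63.6%) a match began within 60 bases of the start site, a distance chosen after the positions were seen, against 1 of 11 transport promoters and 6.36% of all genes. The matches nearest to the start site are given below with 12 bases on each side, read 5′ to 3′ along the gene, with the matched letters in capitals and the coordinates and strand of GRCm38.p6.
Kif11, chr19:37376351-37376380 (+): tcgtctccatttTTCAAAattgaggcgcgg
Kif14, chr1:136467608-136467637 (+): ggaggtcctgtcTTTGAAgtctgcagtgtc
Kif15, chr9:122951050-122951079 (+): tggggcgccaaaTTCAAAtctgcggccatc
Kif18b, chr11:102925104-102925133 (-): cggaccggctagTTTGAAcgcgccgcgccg
Kif20b, chr19:34922353-34922382 (+): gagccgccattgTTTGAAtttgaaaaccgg
Kif22, chr7:127042420-127042449 (-): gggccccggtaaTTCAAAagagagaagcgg
Kif23, chr9:61946780-61946809 (-): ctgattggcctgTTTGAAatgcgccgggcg
Kif2c, chr4:117178858-117178887 (-): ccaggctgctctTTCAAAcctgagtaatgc
Kif4, chrX:100626072-100626101 (+): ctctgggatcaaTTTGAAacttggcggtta
Kif1a, chr1:93082507-93082536 (-): tttgacagcctcTTTGAAcattgctcctaa
The last of these, Kif1a, is the single transport member with a match, at the inner of its 2 listed start sites. The letters CCAAT, which read ATTGG from the other strand, were present in 7 of 11 mitotic promoters (63.6%) and 3 of 11 transport promoters (27.3%), against 41.1% of all genes. An E2F-type sequence, TTCCCGC (which reads GCGGGAA from the other strand), was present in 0 of 11 in either group, against 5.29% of all genes. A match describes letters in a window and does not show that a factor binds there.

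Longer stretches are given for the 2 mitotic and 2 transport members of highest mean TPM and for Kif5c, a neuronal kinesin-1 heavy chain, to show what lies before their start sites. Each stretch is the part of the 250 bases before the start site that overlaps no annotated exon, with any match to the CHR, CCAAT or E2F-type letters on either strand in capitals.
Kif23, chr9:61946800-61947049 (-): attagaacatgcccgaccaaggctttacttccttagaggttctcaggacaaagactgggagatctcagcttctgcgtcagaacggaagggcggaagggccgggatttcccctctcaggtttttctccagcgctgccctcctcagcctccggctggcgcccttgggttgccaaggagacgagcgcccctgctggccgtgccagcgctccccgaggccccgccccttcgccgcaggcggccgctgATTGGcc
Kif22, chr7:127042472-127042670 (-): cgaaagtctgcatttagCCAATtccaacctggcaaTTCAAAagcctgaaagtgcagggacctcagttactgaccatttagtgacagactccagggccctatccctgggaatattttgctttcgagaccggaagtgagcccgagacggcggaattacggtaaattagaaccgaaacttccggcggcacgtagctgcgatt
Kif3a, chr11:53567314-53567368 (+): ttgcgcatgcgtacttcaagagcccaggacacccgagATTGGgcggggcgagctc
Kif1a, chr1:93101952-93102124 (-): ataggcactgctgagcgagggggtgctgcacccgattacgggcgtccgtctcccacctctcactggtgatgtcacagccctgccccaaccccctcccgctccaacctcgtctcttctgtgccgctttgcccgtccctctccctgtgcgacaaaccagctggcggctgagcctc
Kif5c, chr2:49619036-49619285 (+): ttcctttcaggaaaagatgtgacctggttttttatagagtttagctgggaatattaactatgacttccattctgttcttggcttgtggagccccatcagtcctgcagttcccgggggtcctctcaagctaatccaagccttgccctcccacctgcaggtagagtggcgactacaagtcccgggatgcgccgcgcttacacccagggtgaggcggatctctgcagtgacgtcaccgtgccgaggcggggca
In these stretches, Kif22 held a CCAAT box and a second CHR match, Kif23 and Kif3a held a CCAAT box close to the start site, and Kif5c and the outer start site of Kif1a, the one shown here, held none of the 3 sequences. The stretch before the inner start site of Kif1a holds the CHR match given above and is not repeated.

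Transport kinesins were the most abundant members. Their summed level was 636.0 and 919.7 TPM in N/D replicates 1 and 2, and 926.4 and 386.9 TPM for N/D/S. Mitotic kinesins summed to 126.3 and 104.4 TPM in N/D and to 65.3 and 60.6 TPM in N/D/S. The mitotic sum was thus 19.9% and 11.4% of the transport sum in N/D and 7.05% and 15.7% in N/D/S, so the lines overlapped. In N/D replicate 1, 72.1% of the mitotic sum was Kif23. Without Kif20b, Kif22 and Kif23, the values were 0.037% and 6.69% in N/D and 3.70% and 8.09% in N/D/S. They overlapped too, but N/D replicate 1 was then the lowest rather than the highest. With a single library value per point and 2 libraries a line, the smallest two-sided p of an exact permutation test is 0.333, and none was run. By mean TPM over the 4 libraries, the 7 most abundant of the 38 members were transport motors. These were Kif3a, Kif1a, Kif5c, Kif1b, Kif5b, Kif3c and Kif5a, followed by the mitotic motors Kif23 and Kif22. The rank of Kif23 rests on N/D replicate 1, at 91.1 TPM, against 1.66 to 8.94 TPM in the others. In the plot of levels by library, transport genes reach higher than any other group, while 9 of the 12 mitotic genes sit at or near 0 in the N/D-labelled replicate 1 library.

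**Figure D1:**
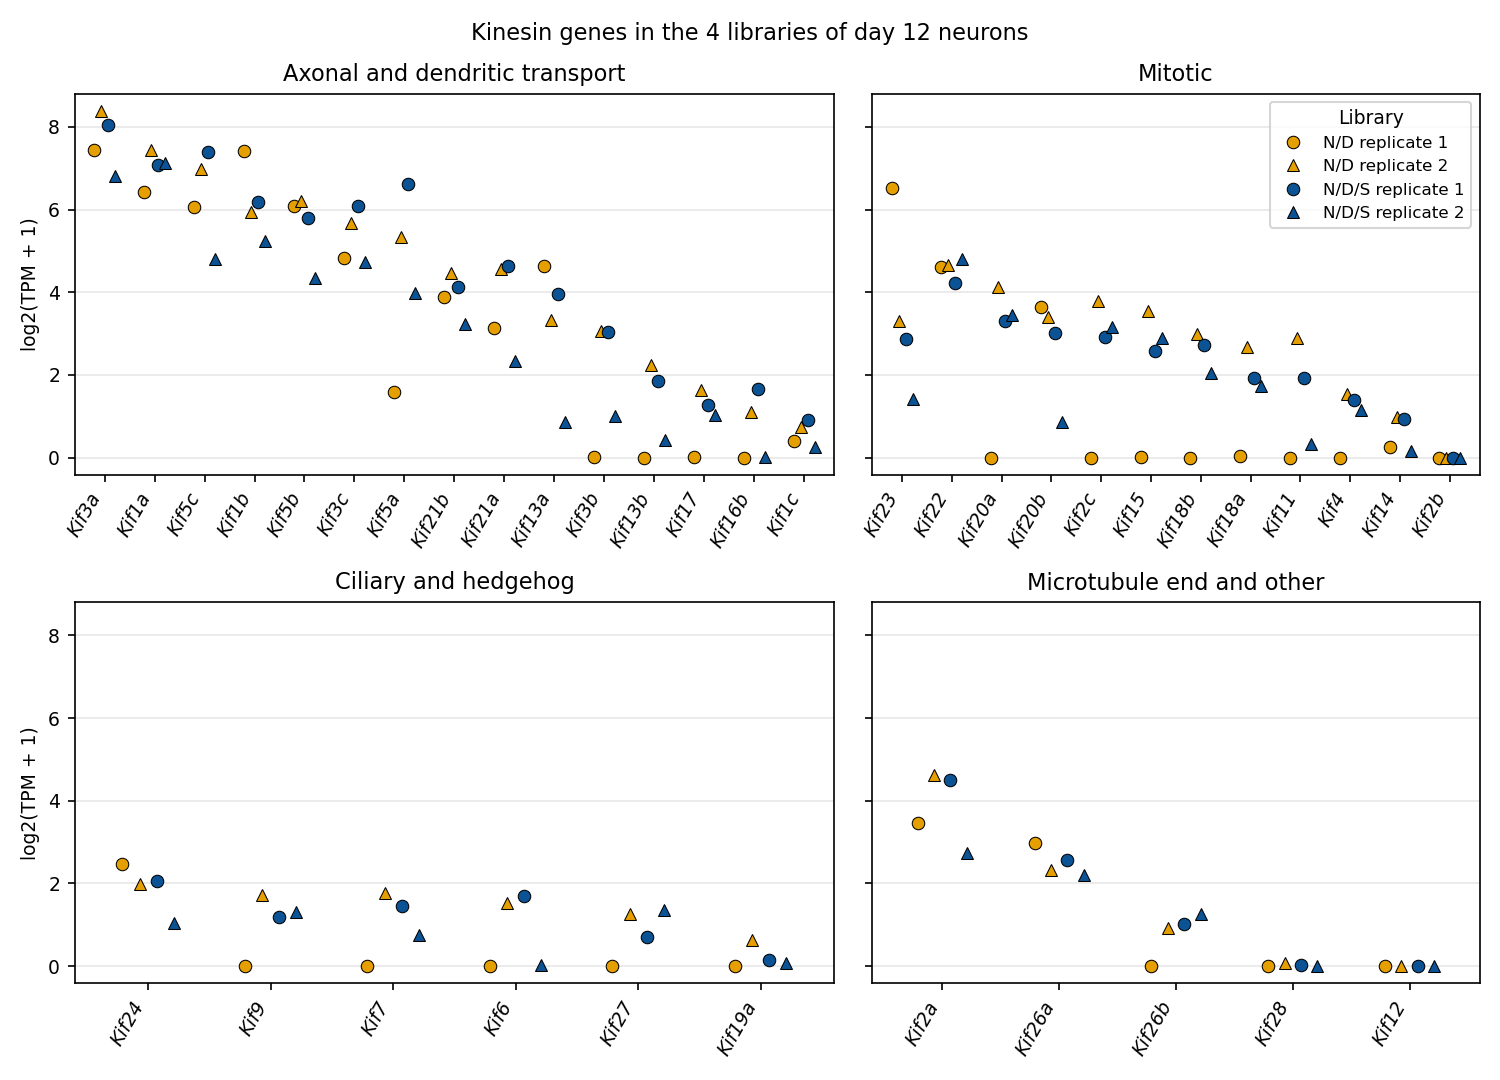
Level of each of the 38 kinesin genes in each library as log2(TPM + 1), by role and ordered by mean TPM; color marks the line and shape the replicate number. Kif3a has the highest mean, at 111 to 334 TPM. In the N/D-labelled replicate 1 library 16 members lie at 0, as do 21542 of all 34968 symbols.

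The test of N/D/S against N/D was limma on log2(TPM + 1), run over the 12975 genes that reached 1 TPM in 2 or more libraries and adjusted by Benjamini-Hochberg. Of the 38 members, 32 passed this filter, namely 14 transport, 10 mitotic, 5 ciliary and 3 other motors. None of the 32 had an adjusted p under 0.05 (0 of 32, against 0% of all genes tested), and none had an unadjusted p under 0.05 either, against 0.0617% of all genes (0.0231% higher and 0.0385% lower in N/D/S). The adjusted p from limma was 1 for every member tested, and the lowest unadjusted p was 0.0772, for Kif23. Standard errors of the members' log2 fold changes ran from 0.97 to 1.55, and a difference of about 2-fold is close to the lowest. Limma draws each gene's spread toward that of all genes, so these are not the spread of the gene alone. For Kif22 the residual standard deviation was 0.29 and the standard error 0.97, and for Kif5a they were 2.30 and 1.55. Without the N/D-labelled replicate 2 library, which leaves a lone N/D library assumed to vary as the N/D/S pair does, 2373 of all genes (18.3%) and 4 members passed the adjusted threshold. These members were Kif23 (log2 fold change -4.38, adjusted p = 0.00241 from limma), Kif5a (3.72, adjusted p = 0.011), Kif20a (3.38, adjusted p = 0.0233) and Kif2c (3.04, adjusted p = 0.0461), each then set against the N/D library that had the fewest symbols above 0. Both N/D/S libraries lay above both N/D libraries for 1 member (Kif26b), against 8.69% of all genes tested, and below them for 3 members (Kif5b, Kif20b and Kif23), against 8.23%. Kif26b reached 1 TPM in the N/D/S libraries alone, so it passed the filter through the line in which it was higher. Together these are 4 of 32 members, where 16.9% of all genes tested had no overlap between the lines.

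**Figure D2:**
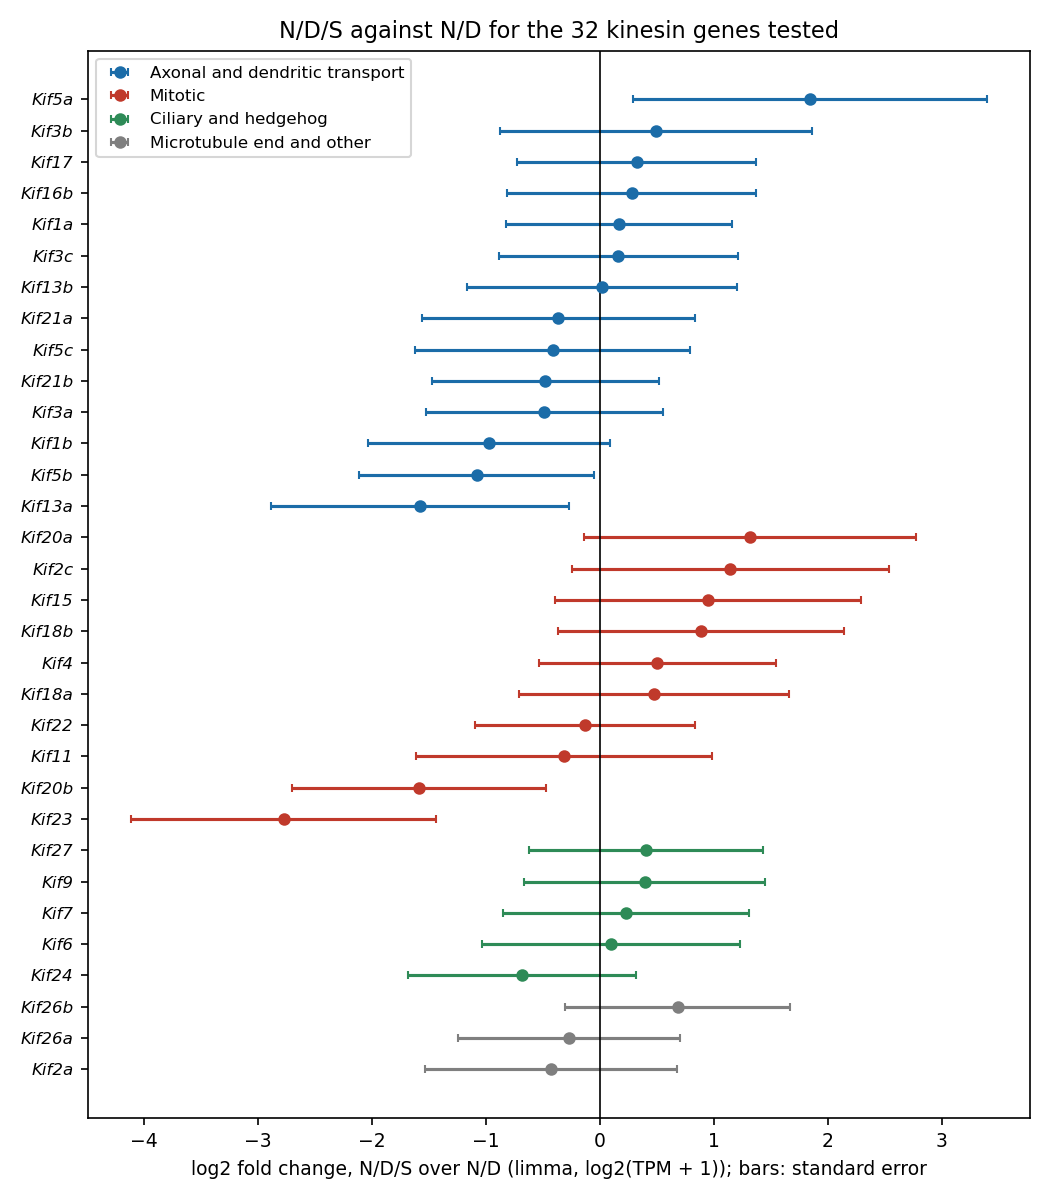
Log2 fold change, N/D/S relative to N/D, for the 32 kinesin genes tested, from limma on log2(TPM + 1), colored by role. Bars are limma's standard errors with 2 libraries a line, drawn toward the spread of all genes. Values run from -2.77 for Kif23 to 1.84 for Kif5a, and none passed the adjusted threshold.

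Among transport motors, 7 of the 14 tested had a log2 fold change above 0 and 7 below (61.4% of all genes tested were above), with a median of -0.17, against 0.26 over all genes tested. Among mitotic motors, 6 were above and 4 below, with a median of 0.49. The mitotic median was thus 0.66 above the transport median on the log2 scale. Both medians differed in sign between the replicate numbers. Within replicate 1, the median difference of N/D/S from N/D on log2(TPM + 1) was 1.26 for transport and 1.90 for mitotic members, and 1.14 for all genes tested. Within replicate 2 it was -1.47 for transport and -0.81 for mitotic members, and -0.62 for all genes tested. The mitotic median was above the transport median in both. Without the N/D-labelled replicate 1 library, the medians of the fold changes were -0.82 for transport, -0.78 for mitotic members and -0.29 for all genes tested, so the gap between both groups of motors was 0.04. In all, 9 of the 32 members had the same sign in both replicate numbers, where 33.7% of all genes tested did. The plot of differences within replicate numbers places most members at the lower right, higher in N/D/S in replicate 1 and lower in replicate 2.

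**Figure D3:**
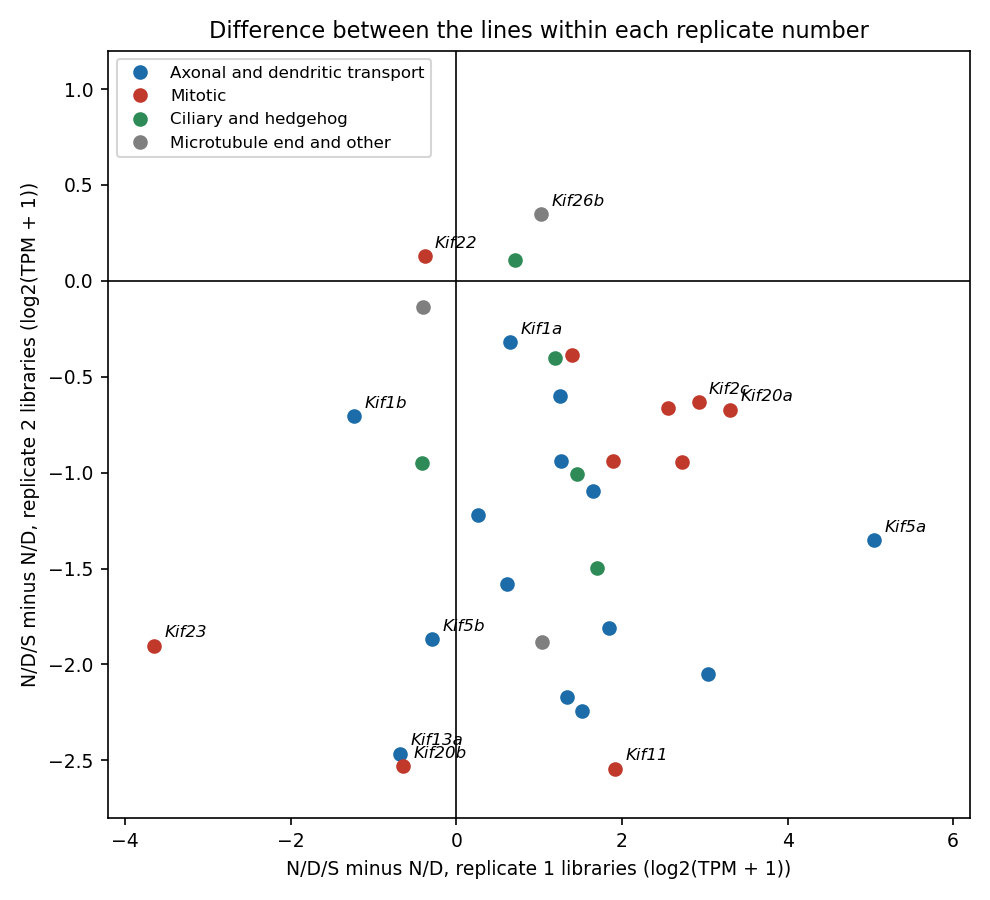
Difference of N/D/S from N/D on log2(TPM + 1) for each of the 32 members tested, in the replicate 1 libraries (horizontal axis) and in the replicate 2 libraries (vertical axis), colored by role. Kif1b, Kif5b, Kif13a, Kif20b and Kif23 are among those below 0 on both axes, and Kif26b and Kif27 are above 0 on both.

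Kinesin-1, the motor of mitochondria and many axonal vesicles, is built from a heavy chain encoded by Kif5a, Kif5b or Kif5c. Kif5a, the neuron-specific chain at chr10:127225696-127263348 on the minus strand of GRCm38, had 1.99 and 39.5 TPM for N/D and 97.6 and 14.8 TPM for N/D/S, in replicate order. The N/D value of replicate 2 lies between both N/D/S values, and the N/D-labelled replicate 1 library is far below the other 3. Its log2 fold change was 1.84 (standard error 1.55, unadjusted p = 0.273 from limma), and -0.03 without the N/D-labelled replicate 1 library. Kif5b, the chain found in most cell types, had 66.7 and 72.6 TPM in N/D and 54.4 and 19.1 TPM in N/D/S. Both N/D/S libraries were below both N/D libraries, with a log2 fold change of -1.08 (standard error 1.03, unadjusted p = 0.33 from limma). Kif5c, a chain enriched in neurons, had 65.3 and 124.7 TPM in N/D and 167.0 and 26.9 TPM in N/D/S, so that N/D/S held both the highest and the lowest value.

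Shares within a subfamily do not depend on how libraries are scaled to each other. Kif5a made up 1.49% and 16.7% of kinesin-1 heavy chain TPM for N/D and 30.6% and 24.4% for N/D/S. Both N/D/S shares were above both N/D shares, a mean of 27.5% against 9.08%, or against 16.7% in N/D replicate 2 alone. Kif5b made up 49.8% and 30.7% in N/D and 17.1% and 31.4% in N/D/S, which overlap. Kif5c had 44.2% to 52.7% in all 4 libraries. Shares were not tested, and of the 21 computed, 9 in the Kif1, Kif3 and Kif5 subfamilies and 12 within the mitotic sum, 5 had no overlap between the lines (Kif5a, Kif3a, Kif3c, Kif4 and Kif22), beside 16.9% of all genes tested on TPM. Shares of 1 sum are tied to each other, as those of Kif3a and Kif3c are, and Kif2b, at 0 in every library, could not separate the lines.

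**Figure D4:**
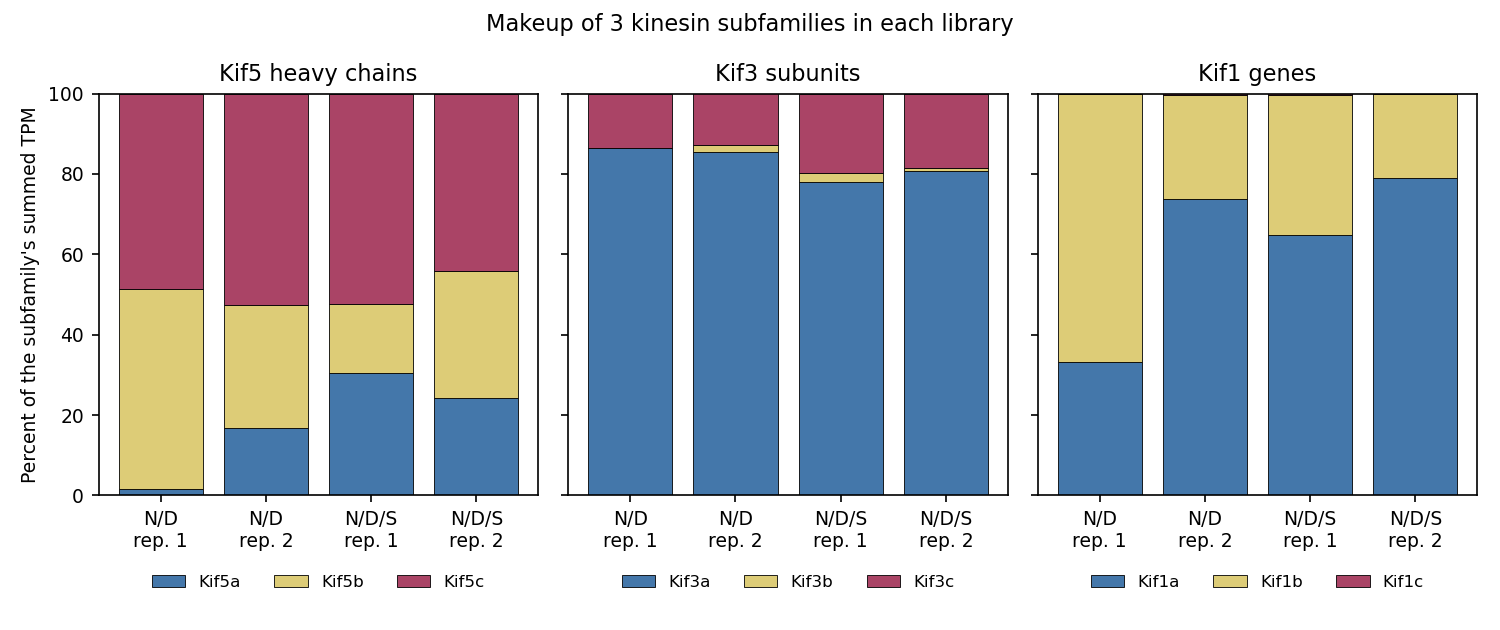
Share of each gene in the summed TPM of its subfamily (vertical axis, percent) in each library, for the Kif5 heavy chains, the Kif3 subunits and the Kif1 genes. Kif5a takes 24.4% and 30.6% in the N/D/S libraries against 1.49% and 16.7% in N/D, and Kif3b is under 3% of its subfamily in every library.

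Kinesin-2 is a heterotrimer of Kif3a with Kif3b or Kif3c and the adaptor Kifap3, and carries cargo in axons and along cilia. Kif3a, at chr11:53567379-53601967 on the plus strand, had 173 and 334 TPM for N/D and 264 and 111 TPM for N/D/S, the highest level of any member in 3 of the 4 libraries. Kif3c, a neuronal subunit, had 27.4 and 49.6 TPM in N/D and 67.4 and 25.4 TPM in N/D/S. Kif3b had 0.00287 and 7.34 TPM in N/D and 7.25 and 1.01 TPM in N/D/S, so TPM of Kif3a exceeded that of its partner 36.5-fold in N/D/S replicate 1 and 45.5-fold in N/D replicate 2, and 109.7-fold in N/D/S replicate 2. The ratio of Kif3a to Kifap3 was steadier, at 4.83 and 5.39 in N/D and 4.17 and 4.94 in N/D/S. Kif3c made up 13.7% and 12.7% of Kif3 TPM in N/D and 19.9% and 18.5% in N/D/S, without overlap, and the share of Kif3a was correspondingly lower in both N/D/S libraries. Kif17, the homodimeric kinesin-2 known for dendritic transport, had at most 2.10 TPM in any library.

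Kinesin-3 motors carry synaptic vesicle precursors, dense core vesicles and endosomes. Kif1a, the main axonal motor for synaptic vesicle precursors, had 85.3 and 172 TPM for N/D and 134 and 137 TPM for N/D/S, so the N/D/S values lay between those of N/D. Its log2 fold change was 0.17 (standard error 0.99). Kif1b, which has forms for mitochondria and for synaptic vesicle precursors, had 171 and 60.3 TPM in N/D and 71.8 and 36.6 TPM in N/D/S. The library labelled N/D replicate 1 was thus the lowest of the 4 for Kif1a and the highest for Kif1b, and Kif1a made up 33.3% of Kif1 TPM there against 64.9% to 78.9% in the others. Kif13a, a motor of endosomes and mannose-6-phosphate receptor vesicles, had 23.9 and 9.08 TPM in N/D and 14.5 and 0.826 TPM in N/D/S. Its log2 fold change was -1.57 (standard error 1.31), and -0.03 without N/D/S replicate 2 or -3.12 without N/D/S replicate 1. Its value was lower in N/D/S within each replicate number, but the lines overlapped, with N/D/S replicate 1 above N/D replicate 2. Kif1c, Kif13b and Kif16b had at most 3.72 TPM in any library.

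Kif21a and Kif21b are kinesin-4 motors that restrain microtubule growth and are present in neurons. Kif21a had 7.76 and 22.7 TPM for N/D and 24.0 and 4.02 TPM for N/D/S, and the lines overlapped. Kif21b had 13.7 and 20.9 TPM in N/D and 16.6 and 8.42 TPM in N/D/S, with the same kind of overlap. Across the whole transport group, the N/D/S-labelled replicate 2 library was low, being below N/D replicate 2 for 15 of 15 members and below N/D/S replicate 1 for 14 of 15. The same held for 74.7% and 73.2% of all genes tested, on TPM as deposited.

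Mitotic kinesins divided the N/D-labelled replicate 1 library into 2 sets of genes. Kif20b, Kif22 and Kif23 were at 11.5 to 91.1 TPM there, whereas the other 9 members summed to 0.238 TPM, and 6 of the 9 were listed at 0. In the other libraries those 9 summed to 61.5 TPM (N/D replicate 2), 34.2 TPM (N/D/S replicate 1) and 31.3 TPM (N/D/S replicate 2). Of the 8 mitotic members at 1 TPM or more in the remaining libraries, 6 were under 0.1 TPM in N/D replicate 1. These were Kif2c, Kif4, Kif15, Kif18a, Kif18b and Kif20a. The same held for 2 of 11 transport members (Kif3b and Kif17) and 30.4% of all genes. These shares were not matched for level. Elsewhere the 6 mitotic members had 1.22 to 16.4 TPM, and Kif3b and Kif17 had 1.01 to 7.34 TPM. Of the mitotic members not under 0.1 TPM, Kif22 had 17.7 to 26.8 TPM elsewhere and Kif23 had 1.66 to 8.94 TPM. The letters TTTGAA did not separate the 2 sets, since Kif20b, Kif22 and Kif23 hold them as do Kif2c, Kif4, Kif11, Kif14, Kif15 and Kif18b.

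Kif23 is the motor subunit of centralspindlin, which bundles the central spindle at the end of mitosis, and lies at chr9:61915905-61946774 on the minus strand. It had 91.1 and 8.94 TPM for N/D and 6.36 and 1.66 TPM for N/D/S. Both N/D/S libraries were below both N/D libraries, and the N/D-labelled replicate 1 library stood apart, with 72.1% of its mitotic kinesin TPM in this gene. The log2 fold change was -2.77 (standard error 1.34, unadjusted p = 0.0772 from limma), and -1.17 without that library. Racgap1, the partner of Kif23 in centralspindlin, went the other way in N/D replicate 1, with 2.11 TPM there against 9.52 to 34.5 TPM in the other libraries. Kif20b, a motor of cytokinesis that is also present in developing neurons, had 11.5 and 9.50 TPM in N/D and 7.02 and 0.819 TPM in N/D/S. Its log2 fold change was -1.59 (standard error 1.11), and -0.52 without N/D/S replicate 2 or -2.66 without N/D/S replicate 1. Kif22, a chromosome arm motor at chr7:127027729-127042471 on the minus strand, had 23.4 and 24.5 TPM in N/D and 17.7 and 26.8 TPM in N/D/S, and the lines overlapped.

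Kif20a, Kif2c and Kif15 were at or near 0 in 1 library, N/D replicate 1. Kif20a, which brings the chromosomal passenger complex to the central spindle, was listed at 0 in the N/D-labelled replicate 1 library, and had 16.4 TPM in N/D replicate 2 and 8.92 and 9.94 TPM in N/D/S. Kif2c, a microtubule depolymerase of the centromere, was also listed at 0 there, and had 12.8 TPM in N/D replicate 2 and 6.6 and 7.89 TPM in N/D/S. Kif15, a spindle motor that can replace Kif11, had 0.0179 and 10.8 TPM in N/D and 5.01 and 6.44 TPM in N/D/S. For each of these 3 genes both N/D/S values lay below N/D replicate 2 and above N/D replicate 1, and their log2 fold changes of 1.32, 1.15 and 0.95 turned to -0.74, -0.74 and -0.82 without the N/D-labelled replicate 1 library. Kif11, the plus-end motor that pushes spindle poles apart, was listed at 0 in N/D replicate 1 and had 6.38 TPM in N/D replicate 2, with 2.77 and 0.266 TPM in N/D/S. Kif4, Kif14, Kif18a and Kif18b, which act on chromosome arms, the midbody and kinetochore microtubules, had at most 6.91 TPM in any library, and Kif2b was listed at 0 in all 4. Reads of Kif22 and Kif4 could be shared with their pseudogenes, which were listed at 0 and at no more than 0.0047 TPM.

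Genes that work with the mitotic motors were also measured. Of 20 mitotic partners, including Aurka, Plk1, Tpx2 and Prc1, 12 were listed at 0 in the N/D-labelled replicate 1 library. In any other library, 0 of 20 were. Of the 19 at 1 TPM or more in the other libraries, 11 (57.9%) were at 0 in N/D replicate 1, against 21.9% of all genes. Top2a and Cenpf, picked after their values were seen, had 24.3 and 5.36 TPM there, below N/D replicate 2 (38.3 and 17.5 TPM) and above both N/D/S libraries (at most 17.3 and 4.22 TPM). None passed the test, adjusted or unadjusted (0 of 20), with 16 log2 fold changes above 0, 4 below and a median of 1.04, which was -1.002 without that library. Birc5, a chromosomal passenger subunit and the partner of highest mean TPM, had 35.7 and 80.1 TPM in N/D and 29.6 and 40.3 TPM in N/D/S. Cdk1, the mitotic kinase, was listed at 0 in N/D replicate 1 and had 60.2 TPM in N/D replicate 2, with 26.6 and 46.3 TPM in N/D/S. The B-type cyclin Ccnb1 had 0.800 and 59.0 TPM in N/D and 22.9 and 25.3 TPM in N/D/S.

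Kinesins of cilia and hedgehog signaling were low. Kif7, the hedgehog pathway kinesin at the ciliary tip, was listed at 0 in the N/D-labelled replicate 1 library and had 2.40 TPM in N/D replicate 2, with 1.76 and 0.691 TPM in N/D/S. The other 5, Kif6, Kif9, Kif19a, Kif24 and Kif27, had at most 4.57 TPM in any library. Of all 12975 genes tested, 3389 were listed at 0 in N/D replicate 1. So were 5 of the 6 in this group, which had at most 2.40 TPM elsewhere. Kif24, a regulator of cilium assembly, was the exception, with 4.57 and 2.98 TPM in N/D and 3.19 and 1.06 TPM in N/D/S. Of the 5 tested, 4 had a log2 fold change above 0 and 1 below, where 61.4% of all genes tested were above. Their median was 0.23, and -0.46 without the N/D-labelled replicate 1 library.

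Of the remaining motors, Kif2a, a microtubule depolymerase that trims axon branches, was the most abundant. It had 10.1 and 23.6 TPM for N/D and 21.6 and 5.66 TPM for N/D/S, and the lines overlapped (log2 fold change -0.43, standard error 1.11). Kif26b, an atypical kinesin with a role in cell adhesion, was listed at 0 in N/D replicate 1 and had 0.881 TPM in N/D replicate 2, with 1.03 and 1.39 TPM in N/D/S. Its log2 fold change was 0.68 (standard error 0.99), a direction that the filter favored, since neither N/D library reached 1 TPM. Kif26a had 3.57 to 6.82 TPM, Kif28 at most 0.0478 TPM, and Kif12 was listed at 0 in every library.

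Light chains, adaptors and cargo links of the transport motors were listed under 24 symbols, of which 23 were in the files, and all 23 passed the filter. None passed the test, adjusted or unadjusted, with 17 log2 fold changes above 0, 6 below and a median of 0.68, which was -0.25 without the N/D-labelled replicate 1 library. Fez1, a kinesin-1 adaptor, had the highest mean TPM of these, with 409.5 and 622.3 TPM in N/D and 698.0 and 488.9 TPM in N/D/S. Klc1, the main neuronal kinesin light chain, had 433.7 and 468.8 TPM in N/D and 636.8 and 210.0 TPM in N/D/S. Arl8a, which links lysosomes and synaptic vesicle precursors to kinesins, had 463.9 and 341.9 TPM in N/D and 243.0 and 177.5 TPM in N/D/S. For Fez1 and Klc1 the lines overlapped, whereas Arl8a was lower in both N/D/S libraries, with a log2 fold change of -0.94 (standard error 0.97). Of the 23, both N/D/S libraries lay above both N/D libraries for 3 and below them for 2. The shares over all genes tested were 8.69% and 8.23%.

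Cytoplasmic dynein and its cofactor dynactin move cargo in the opposite direction. Their 19 genes summed to 3990 TPM and 4233 TPM for N/D and to 4206 TPM and 3978 TPM for N/D/S, in replicate order. None of the 19 passed the test, adjusted or unadjusted, with 9 log2 fold changes above 0, 10 below and a median of -0.02. The light chain Dynll1 had 932.6 TPM and 1111 TPM in N/D and 944.6 TPM and 1145 TPM in N/D/S. Dynlrb1, another light chain, had 1158 TPM and 826.0 TPM in N/D and 669.7 TPM and 870.5 TPM in N/D/S. Dctn3, a dynactin subunit, had 495.3 and 424.4 TPM in N/D and 376.6 and 487.0 TPM in N/D/S, and for these 3 genes the lines overlapped.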

How the data were processed

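Poly-A RNA from sorted tdTomato+ neurons was sequenced as paired-end reads, and the authors pseudoaligned them with kallisto 0.44.0 to a mouse transcriptome (GRCm38 in the submitters' processing notes) and tested them with sleuth. The authors deposited TPM per gene symbol, 1 file per library. How transcripts were combined, and any scaling between libraries, are not given in the sources used here. TPM keep no read counts, so depth is unknown and no intervals are given. Sleuth needs kallisto's own output, so it was not used here.

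Files were joined on symbol, after 26 symbols turned into dates were left out of each. The fit used limma 3.58.1 (R 4.3.3) on log2(TPM + 1) for genes that reached 1 TPM in 2 or more libraries, 2 libraries against 2, without covariates, with Benjamini-Hochberg adjustment over all 12975 genes and a threshold of 0.05. Tested on simulated data, the fit recovered changed genes when the spread between libraries was small, but not at the spread of these libraries. Fold changes on this scale understate those of low genes. Lists are described by counts and medians. Python 3.11.15 drew the figures, and gene positions came from GENCODE M21.

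Groups and replicate numbers came from the labels. Members and lists were chosen with earlier results of these data known. Members at 10 TPM or more in a library are given in every library, others by range and counts, and the 3 partners of highest mean TPM per list are named. Other genes with values (Kif26b, Racgap1, Kif3b, Kif11, Kif7, Kif24), and the set of Kif20b, Kif22 and Kif23, were picked after their values were seen. Alternatives were other pseudocounts, filters and scalings, replicate number as a block, a variance trend, and each library left out.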

Additional observations from a re-analysis of the deposited data

How the results depend on the processing

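The 38 results took 469 values under the alternatives. Among these, 48 fold changes of single members turned direction and 4 passed the adjusted threshold, while 8 members (Kif1b, Kif5b, Kif13a, Kif20b, Kif21b, Kif23, Kif24 and Kif26b) kept their direction in every one, some of them close to 0 when 1 library was left out (-1.71 to -0.23 for Kif1b, -1.81 to -0.35 for Kif5b, -3.12 to -0.03 for Kif13a, -2.66 to -0.52 for Kif20b, -0.93 to -0.03 for Kif21b, -4.38 to -1.17 for Kif23, -1.19 to -0.17 for Kif24 and 0.23 to 1.14 for Kif26b). Genes passing the adjusted threshold numbered 0 by default, 6 with a variance trend and 0 to 2373 when each library was left out; members numbered 0 to 4 when each was left out, and 0 in every other fit. In these fits the lone library of a line is assumed to vary like the other line. Genes passing at an unadjusted p under 0.05 numbered 8 by default, 18 with a pseudocount of 0.1, 207 without a filter, 42 where every library had to reach 1 TPM, 18 under median of ratios, 486 under upper quartile, 72 under quantile normalization, 224 with a variance trend, and 3 to 3789 when each library was left out. Kif23 was among them with upper quartile scaling (unadjusted p = 0.0179 from limma) and where every library had to reach 1 TPM (unadjusted p = 0.0234 from limma), and 6 members were without N/D replicate 2. Over all genes tested, same-numbered libraries did not deviate together (correlation 0.0197), although summed markers of other cell types were higher in both replicate 2 libraries, and the labels do not say what a number marks; with the replicate block 0 genes and 0 members passed the adjusted threshold, and 9 genes were under an unadjusted p of 0.05. The median of all genes moved from 0.26 to 0.14 under upper quartile scaling and to -0.05 under quantile normalization.

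The mitotic median was -1.45 where every library had to reach 1 TPM, which leaves Kif22 and Kif23, and -0.78 to 1.53 when each library was left out; the transport median was -0.82 to 0.59. Both medians are within the spread between libraries, and their signs also turned without a filter (transport, 0.019) and under quantile normalization (mitotic, -0.17). The mitotic minus transport difference was 1.85 with a pseudocount of 0.1, -1.04 where every library had to reach 1 TPM, and 0.01 to 1.19 when each library was left out. The mitotic level was 20.2% of the transport level when medians replaced sums, a mean of 0.0653% and 34.9% in N/D and 22.1% and 23.7% in N/D/S, which puts N/D/S (22.9%) above N/D (17.5%) where sums put it below; with sums it was 11.4% to 15.6% when each library was left out.

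Directions turned for Kif11 with a pseudocount of 0.1 (0.35) and for Kif1a (-0.043) and Kif3c (-0.046) under upper quartile scaling. Under quantile normalization they turned for Kif13b (-0.35), Kif15 (-0.10), Kif16b (-0.10), Kif17 (-0.58), Kif18a (-0.49), Kif27 (-0.028), Kif3b (-0.43), Kif4 (-0.015), Kif6 (-0.25), Kif7 (-0.22) and Kif9 (-0.13). The cause was not tested. With each library left out, log2 fold changes that turned ran from -1.76 to 1.13 for Kif11, -1.10 to 1.14 for Kif13b, -0.82 to 2.72 for Kif15, -0.54 to 1.10 for Kif16b, -0.48 to 1.14 for Kif17, -0.85 to 1.80 for Kif18a, -0.60 to 2.38 for Kif18b, -0.33 to 0.67 for Kif1a, -0.74 to 3.38 for Kif20a, -1.52 to 0.79 for Kif21a, -0.41 to 0.16 for Kif22, -0.59 to 0.051 for Kif26a, -0.22 to 1.04 for Kif27, -1.31 to 0.46 for Kif2a, -0.74 to 3.04 for Kif2c, -1.11 to 0.14 for Kif3a, -1.03 to 2.02 for Kif3b, -0.52 to 0.85 for Kif3c, -0.26 to 1.27 for Kif4, -0.034 to 3.72 for Kif5a, -1.71 to 0.88 for Kif5c, -0.73 to 0.93 for Kif6, -0.66 to 1.11 for Kif7 and -0.46 to 1.25 for Kif9. Depth is unknown, so a member listed at 0 may lie below what its library could detect.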

Other observations

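Among kinesins whose symbols fall outside the rule for members, 5 were looked at, Kifc1, Kifc2, Kifc3, Kifc5b and Cenpe. All 5 were listed at 0 in the N/D-labelled replicate 1 library, as were 3389 of all 12975 genes tested. Kifc3, a minus-end-directed kinesin, had 20.1 TPM in N/D replicate 2 and 18.6 and 18.1 TPM in N/D/S. Kifc2, another minus-end-directed kinesin, had 19.1 TPM in N/D replicate 2 and 13.2 and 11.4 TPM in N/D/S. Cenpe, the kinetochore motor that moves chromosomes to the metaphase plate, had 4.28 TPM in N/D replicate 2 and 1.23 and 0.674 TPM in N/D/S.

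The ratio of Kif3a to Kif1a TPM was 2.03 and 1.94 in N/D and 1.97 in N/D/S replicate 1, against 0.806 in N/D/S replicate 2. Nkx2-1, a transgene carried by both lines, had 16.5 and 48.6 TPM in N/D and 39.6 and 18.3 TPM in N/D/S, and Dlx2, the other, had 71.1 and 187.8 TPM in N/D and 258.6 and 147.5 TPM in N/D/S.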
